A study of Mus musculus with 12 samples.

Results

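The gene set described here is made up of 39 mouse genes that are known targets of hypoxia-inducible factor (HIF) and act outside glycolysis. They were taken as a named list, by Ensembl gene ID and symbol, from tables of 37583 gene IDs, with no threshold on a measured value. The list was chosen with earlier results of these data known. Shares of the set beside those of all tested genes therefore describe the set and are not an independent test of it. Of the 39 genes, 38 were among the 14904 genes tested. The exception, Stc1, had no read in 4 of the 12 libraries. Ero1l is the older symbol of Ero1a.

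Counts of RNA-seq reads per gene were available for 12 libraries, 4 groups of 3, from Ocy454, a line of mouse osteocytes from long bone. Control cells are labelled as original cells, and DKO cells as lacking HDAC4 and HDAC5, class IIa histone deacetylases that repress transcription in the nucleus. Each genotype was studied with and without fluid flow shear stress (FFSS), and FFSS and static samples both carry the time point 3 h. FFSS was applied by orbital rotation of the dishes on a heated mixing platform. All groups derived from a single-cell sub-clone of Ocy454 whose temperature-sensitive T antigen is inactivated at the warmer temperature used for differentiation, and medium with HEPES was used for FFSS. Static and FFSS dishes differ in all that rotation of the medium changes, and these changes cannot be told apart. Genotype was represented by a DKO and a control line, so that deletion and line cannot be told apart either. The study's methods describe an empty sgRNA lentivirus in control cells of its CRISPR lines, whereas the labels here name original cells, so that a difference in lentiviral treatment between the genotypes cannot be told apart from the deletion, and whether the DKO line is 1 clone is not stated. The labels do not say whether replicates were separate cultures, and p-values then measure only the spread between these samples, which may be technical.

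HIF is a pair of proteins, an oxygen-regulated alpha subunit (HIF1α or HIF2α) and ARNT, that binds a short DNA core in the control regions of its targets. When oxygen is plentiful, prolyl hydroxylases mark the alpha subunit for destruction by the VHL complex. When oxygen is scarce, the alpha subunit persists, and its targets adjust glucose use, blood supply, mitochondrial turnover, collagen processing, acid handling and chromatin demethylation. Several targets act back on the pathway or on general transcription. In bone, osteocytes and osteoblasts are known to use HIF in coupling vessel growth to bone formation. In bulk samples such as these, fewer cells expressing a gene and less RNA per cell cannot be told apart.

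Libraries held between 17.6 and 19.2 M reads assigned to genes. Values below are CPM, the count scaled by the library's normalised total in M reads. A gene was called when edgeR's quasi-likelihood test gave a Benjamini-Hochberg adjusted p under 0.05 over all 14904 genes together with a change of more than 2-fold. "Rose" and "fell" are used only of called genes, and each ± after a log2 fold change is a standard error with 3 libraries per group. Hdac4 (ENSMUSG00000026313) had 458 to 550 counts per library in control static, 597 to 860 in control FFSS, 220 to 309 in DKO static and 214 to 250 in DKO FFSS cells. Hdac5 had 2421 to 2706, 1457 to 1755, 1461 to 1634 and 1553 to 1687 counts in the same order, so that its DKO and control ranges overlapped under FFSS. Of the osteocyte and osteoblast markers, Dmp1, Sost and 7 others had reads in every group, Fgf23 was at 0 in control FFSS and in DKO static cells, and the summed level of the 10 was 18988 to 22993 CPM in control static, 6324 to 19527 in control FFSS, 60900 to 68262 in DKO static and 63117 to 65422 in DKO FFSS libraries. Endothelial, adipocyte and skeletal muscle markers summed to at most 1.02, 2.53 and 10.6 CPM. The 4 haematopoietic markers summed to 24.05 to 28.5 CPM in control static, 15.6 to 23.5 in control FFSS, 2.91 to 3.29 in DKO static and 3.04 to 3.51 in DKO FFSS libraries, mostly from Cd68, which was called lower in DKO cells (-3.46 static). Csf1r, the other of the 2 markers tested, was called higher in static DKO cells and under FFSS in control cells. The part of these markers in the genotype differences was not tested.

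Per length of exon, the 39 genes covered a wide range of levels in control static cells. The highest mean was that of Fam162a, at 427 RPKM, which is CPM per kilobase of exon, followed by Mif at 243, Bhlhe40 at 216, P4ha1 at 187 and Lox at 142 RPKM. Stc1 at 0.104, Loxl2 at 0.465, Car12 at 0.555 and Adm at 2.35 RPKM were the lowest. Low counts limit what can be said of these 4 genes, and of Ankrd37 under FFSS, where it had as few as 13 counts in a library.

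The set was lower under FFSS in control cells. Of the 38 genes tested, 16 fell and 0 rose, 42.1% against a background of 1.97% of all tested genes called lower and 3.96% called higher. The median log2 fold change was -0.87, against 0.01 over all tested genes. Irrespective of fold, 30 genes were lower and 0 higher at an adjusted p under 0.05, where the background was 18.1% lower and 17.7% higher. For 33 genes (86.8%) every FFSS library was below every static library, and for 0 above, against 22.0% and 19.3% of all tested genes. In DKO cells 5 genes fell and 0 rose, 13.2% against a background of 0.0738% called lower and 0.0134% called higher, since only 11 of all tested genes were called lower there. The median in DKO cells was -0.31, and 8 genes were lower and 0 higher at an adjusted p under 0.05 (background 0.497% and 0.376%). That count depended on the fit. Most of the 38 genes were lower at that threshold, at similar values, without control FFSS replicate 1, and likewise in the 6 DKO libraries fitted alone. Without that replicate, Mxi1 (-0.78, adjusted p = 5.1e-09) and Vegfa (-0.30, adjusted p = 0.00025) were among them. The share of all tested genes that passed in those fits was not counted. Among DKO libraries, every FFSS library was below every static library for 24 genes and above for Wsb1 and Loxl2, against 15.9% and 14.0% of all tested genes. The 5 genes that fell in DKO cells were Ankrd37, Narf, Apln, Bnip3 and Ddit4, and each of them also fell in control cells. The DKO calls of Bnip3 and Ddit4 were lost when any 1 DKO FFSS library was left out. Over all tested genes, 11 were called in both comparisons.

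**Figure D1:**
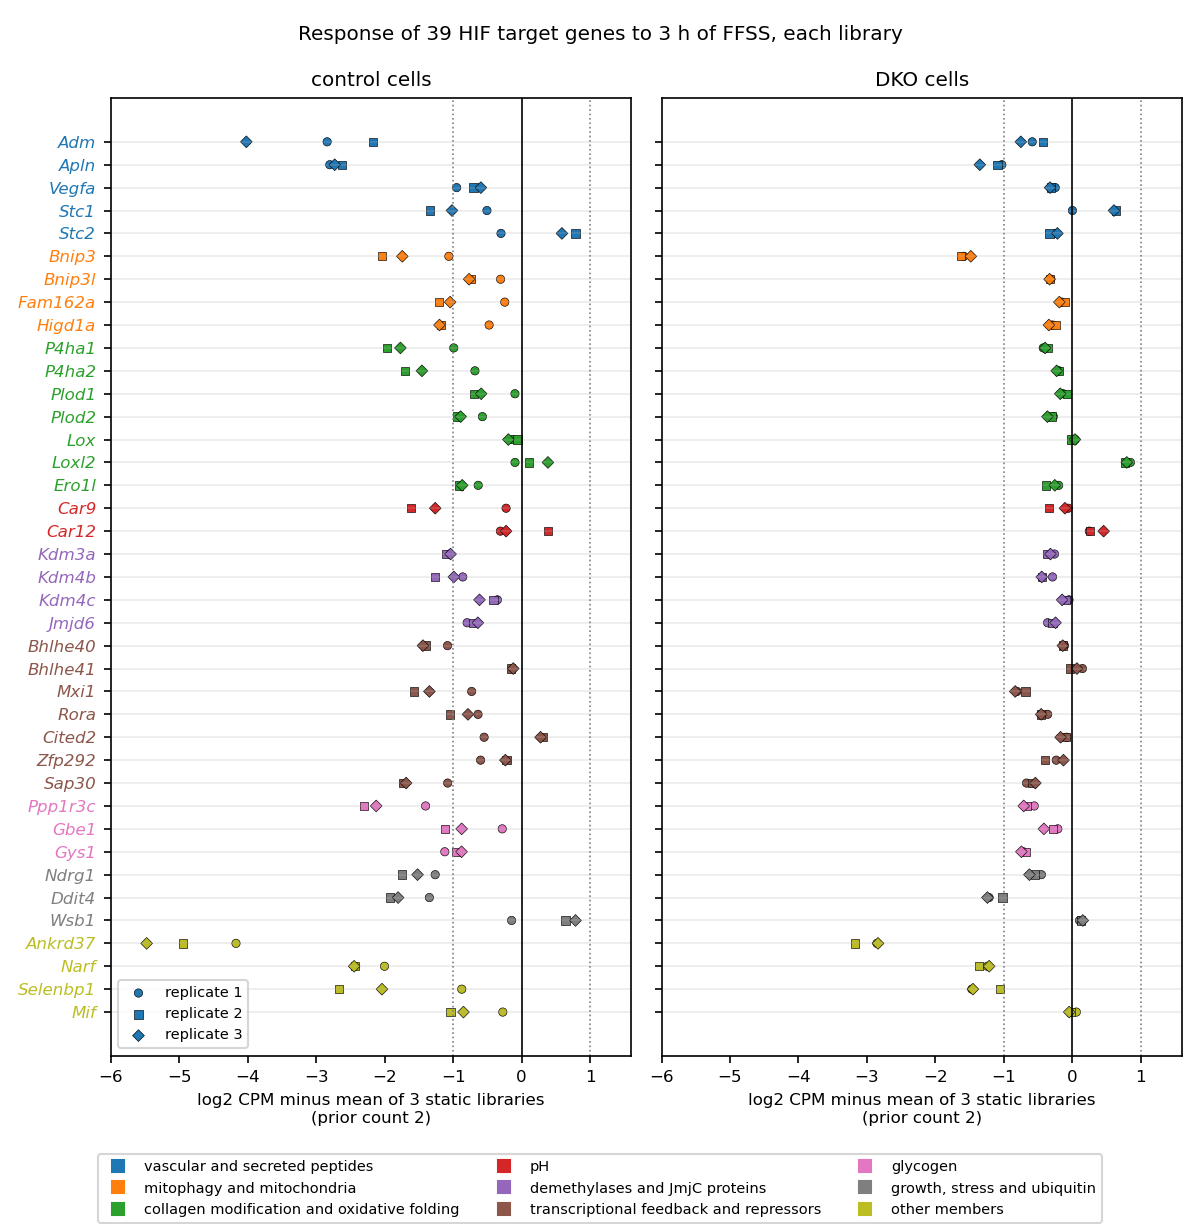
Log2 CPM of each FFSS library minus the mean of the 3 static libraries of the same genotype (prior count 2), for all 39 genes grouped by function, in control (left) and DKO cells (right); each symbol is 1 library and dotted lines mark a 2-fold change. Most control symbols lie left of 0, with the symbols of Ankrd37 farthest, and its DKO symbols lie closer to 0.

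The promoters of the 5 genes that fell in both genotypes are shown because these genes moved together under FFSS. Sequences are from the RefSeq promoter table for GRCm38.p6, a build other than that of the counts. Each runs 5′ to 3′ on the gene's strand across its start site. Capitals mark both forms of the HIF core letters, ACGTG and GCGTG, on either strand, where runs on the other strand read CACGT and CACGC. The Ankrd37 promoter is chr8:45999801-46000100 on the minus strand, Narf chr11:121236986-121237285 on the plus strand, Apln chrX:48034804-48035103 on the minus strand, Bnip3 chr7:138909457-138909756 on the minus strand and Ddit4 chr10:59951721-59952020 on the minus strand.
Ankrd37: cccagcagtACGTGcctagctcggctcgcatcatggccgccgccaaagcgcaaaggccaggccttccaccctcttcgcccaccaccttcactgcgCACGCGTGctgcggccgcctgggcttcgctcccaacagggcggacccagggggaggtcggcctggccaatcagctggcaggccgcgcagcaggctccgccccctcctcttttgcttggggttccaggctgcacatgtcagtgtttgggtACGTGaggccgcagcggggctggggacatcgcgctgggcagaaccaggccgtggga
Narf: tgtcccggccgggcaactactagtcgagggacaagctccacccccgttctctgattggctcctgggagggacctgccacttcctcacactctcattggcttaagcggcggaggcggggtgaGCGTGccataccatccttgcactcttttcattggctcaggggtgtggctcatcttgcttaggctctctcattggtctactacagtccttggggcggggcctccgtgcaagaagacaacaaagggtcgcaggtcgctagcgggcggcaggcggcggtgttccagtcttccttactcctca
Apln: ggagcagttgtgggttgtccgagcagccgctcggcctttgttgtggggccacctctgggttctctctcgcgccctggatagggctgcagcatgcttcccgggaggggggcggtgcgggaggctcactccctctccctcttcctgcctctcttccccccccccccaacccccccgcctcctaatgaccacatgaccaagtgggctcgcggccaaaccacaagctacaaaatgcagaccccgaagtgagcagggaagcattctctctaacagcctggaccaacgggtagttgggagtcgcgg
Bnip3: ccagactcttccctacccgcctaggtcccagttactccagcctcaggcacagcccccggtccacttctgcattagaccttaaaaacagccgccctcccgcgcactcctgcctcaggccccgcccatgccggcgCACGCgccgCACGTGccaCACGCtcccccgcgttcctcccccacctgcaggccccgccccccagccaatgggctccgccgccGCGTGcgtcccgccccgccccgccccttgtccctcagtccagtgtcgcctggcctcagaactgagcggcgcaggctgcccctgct
Ddit4: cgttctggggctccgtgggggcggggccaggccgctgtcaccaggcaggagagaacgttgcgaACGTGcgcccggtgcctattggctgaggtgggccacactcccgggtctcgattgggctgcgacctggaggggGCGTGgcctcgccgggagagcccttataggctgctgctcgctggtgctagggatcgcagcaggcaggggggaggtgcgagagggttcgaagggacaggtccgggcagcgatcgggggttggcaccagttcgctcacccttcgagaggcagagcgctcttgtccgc

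These windows differed in their core letters. Ankrd37 held ACGTG at 2 places and GCGTG at 2, in part overlapping within CACGCGTG, and Bnip3 held 2 and 3, counting both strands of the palindrome CACGTG. Ddit4 held 1 of each, Narf held 1 GCGTG and no ACGTG, and Apln held 0 of either. These letters in this window were thus not shared by all 5 genes. In the table, 31 of the 39 genes had a promoter, with 38 entries in all because some have several starts. ACGTG occurred in 23 of the 38 entries (60.5%) against 19.6% of 32851 promoters, and GCGTG in 23 (60.5%) against 32.4%. At least 1 of the 2 occurred in 73.7% of the entries and in 43.8% of all promoters. A match of letters is a description of the window and does not show binding.

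Of the vascular and secreted peptides, 2 of the 4 tested genes fell in control cells, 1 of them also in DKO cells, and both had a called interaction, the DKO response minus the control response. Apln (ENSMUSG00000037010, chromosome X, 45378323 to 45388030) encodes apelin, a peptide that guides vessel growth. It was at 156, 159.9 and 157 CPM in control static and 22.5, 25.5 and 23.7 CPM in control FFSS libraries. In DKO cells it was at 189, 155 and 209 CPM static and 89.5, 85.6 and 71.6 CPM under FFSS. Static levels of the 2 genotypes overlapped, and under FFSS all DKO libraries were above all control libraries. Apln fell by 2.72 ± 0.11 on the log2 scale (adjusted p = 1.5e-08) in control cells. It fell by 1.17 ± 0.10 on the log2 scale (adjusted p = 8.1e-05) in DKO cells. The interaction was 1.56 ± 0.15 (adjusted p = 0.00021).

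Adm (ENSMUSG00000030790, chromosome 7, 117771175 to 117773331) encodes adrenomedullin, a vasodilator peptide. It was at 3.49, 2.71 and 3.58 CPM in control static and 0.359, 0.634 and 0.0990 CPM in control FFSS libraries. DKO cells held 16.4, 15.5 and 22.9 CPM static and 11.9, 13.3 and 10.6 CPM under FFSS. Every DKO library was above every control library, and within each genotype the FFSS libraries lay below the static ones. Adm fell by 3.13 ± 0.37 on the log2 scale (adjusted p = 6e-05) in control cells, from few reads, while the DKO difference was -0.61 ± 0.19 (adjusted p = 0.16). Its interaction, 2.52 ± 0.43 (adjusted p = 0.008), was the highest of the set. Without control FFSS replicate 2 the control value and the interaction were -3.80 and 3.19, and without replicate 3 they were -2.69 and 2.08. The DKO difference of Adm passed, under 2-fold, without control FFSS replicate 1 (-0.61, adjusted p = 0.016). It also passed in the 6 DKO libraries fitted alone (-0.61, adjusted p = 0.015).

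Vegfa, the main growth factor of vessels, was at 394, 359.9 and 381 CPM in control static and 196, 232 and 250.03 CPM in control FFSS libraries. Levels in DKO cells were 500.2, 476 and 558 CPM static and 429, 411 and 407 CPM under FFSS, and in both genotypes the conditions did not overlap. The difference was -0.74 ± 0.084 (adjusted p = 4.3e-05) in control and -0.30 ± 0.084 (adjusted p = 0.12) in DKO cells, each under 2-fold. The DKO difference of Vegfa passed without control FFSS replicate 1 (-0.30, adjusted p = 0.00025) and in the 6 DKO libraries fitted alone (-0.29, adjusted p = 0.00019). Stc2, the gene of the secreted glycoprotein stanniocalcin 2, was at 22.8, 20.1 and 20.7 CPM in control static and 17.2, 36.6 and 31.9 CPM in control FFSS libraries, so that replicate 1 went the other way from replicates 2 and 3 (0.43 ± 0.21 (adjusted p = 0.12)). Stc1, the related stanniocalcin 1, reached at most 13 counts in any library and was not tested. It was at 0.264, 0.677 and 0.368 CPM in control static libraries and 0 in all 3 DKO static libraries, where a count of 0 allows up to 0.165 CPM (3 counts per library). Under FFSS the DKO libraries held 0 or 1 count, also under that floor, so no direction of Stc1 in DKO cells can be read. The mean of the control static libraries, 0.436 CPM, was thus at least 2.64-fold higher. With no filter on low counts Stc1 was tested, and was called lower in static DKO cells (adjusted p = 0.00012).

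All 4 genes of mitophagy and mitochondria were lower in control FFSS cells at an adjusted p under 0.05, and 1 of them fell. Bnip3 (ENSMUSG00000078566, chromosome 7, 146082519 to 146101202) encodes a receptor on the outer mitochondrial membrane that targets mitochondria for degradation. It was at 165, 173 and 166 CPM in control static and 80.3, 40.7 and 50.1 CPM in control FFSS libraries. For the DKO libraries, values were 55.4, 36.6 and 65.5 CPM static and 16.9, 16.5 and 18.2 CPM under FFSS. The FFSS libraries were below the static libraries in each genotype, and the spread was wider among control FFSS and DKO static replicates than in the other groups. Bnip3 fell by 1.56 ± 0.25 on the log2 scale (adjusted p = 0.0016) in control cells. It fell by 1.61 ± 0.27 on the log2 scale (adjusted p = 0.032) in DKO cells. The interaction was -0.05 ± 0.36 (adjusted p = 0.95), close to 0. The DKO call was lost, at adjusted p between 0.057 and 0.16, when any 1 control static library, DKO static replicate 1 or 3, or any 1 DKO FFSS library was left out, and with no filter (0.06).

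The paralog Bnip3l was at 106, 106 and 107 CPM in control static and 85.9, 63.7 and 62.5 CPM in control FFSS libraries, a difference of -0.59 ± 0.094 (adjusted p = 0.00051). Fam162a, a mitochondrial protein linked to hypoxic cell death, differed by -0.77 ± 0.26 (adjusted p = 0.047), and Higd1a, a small protein of the respiratory chain, by -0.91 ± 0.18 (adjusted p = 0.0042). Both were called without control FFSS replicate 1, at -1.13 and -1.19. In DKO cells Bnip3l differed by -0.33, Fam162a by -0.19 and Higd1a by -0.31, and none of the 3 passed the test in the fit of all 12 libraries. At a similar value, Bnip3l passed without control FFSS replicate 1 (-0.33, adjusted p = 3.1e-05) and in the 6 DKO libraries fitted alone (-0.32, adjusted p = 3.6e-05).

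Among the 7 genes of collagen modification and oxidative folding, 2 fell in control cells and 0 in DKO cells. P4ha1 and P4ha2 encode the catalytic subunits of collagen prolyl 4-hydroxylase, which stabilises the collagen triple helix. P4ha1 (ENSMUSG00000019916, chromosome 10, 58786044 to 58836052) was at 781, 757 and 774 CPM in control static and 387, 197 and 226 CPM in control FFSS libraries. In DKO cells it was at 571, 437 and 585.4 CPM static and 392, 409 and 399 CPM under FFSS. Control FFSS replicate 1 lay well above replicates 2 and 3, and the 3 DKO FFSS libraries were nearly equal. P4ha1 fell by 1.51 ± 0.22 on the log2 scale (adjusted p = 0.00088) in control cells, against -0.41 ± 0.21 (adjusted p = 0.47) in DKO cells. The DKO difference passed, under 2-fold, without control FFSS replicate 1 (-0.41, adjusted p = 0.017). It did not pass in the 6 DKO libraries fitted alone (-0.40, adjusted p = 0.12). The interaction of 1.104 ± 0.30 (adjusted p = 0.077) missed the threshold.

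P4ha2 (ENSMUSG00000018906, chromosome 11, 53913597 to 53945167) was at 646, 602 and 635 CPM in control static and 391, 193 and 229 CPM in control FFSS libraries. DKO cells held 499, 342 and 531 CPM static and 392, 392 and 383 CPM under FFSS, and these overlapped. P4ha2 fell by 1.21 ± 0.25 on the log2 scale (adjusted p = 0.0052) in control cells, and the DKO difference was -0.23 ± 0.24 (adjusted p = 0.78). Without control FFSS replicate 1, the interaction was called for both genes, at 1.46 for P4ha1 and 1.34 for P4ha2. DESeq2 also called it for P4ha1, at 1.12 (adjusted p = 0.0017).

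The other 5 genes of this group changed by less than 2-fold or did not pass. The lysyl hydroxylases Plod1 and Plod2, which prepare collagen for cross-linking, differed by -0.44 ± 0.12 (adjusted p = 0.015) and -0.79 ± 0.084 (adjusted p = 2.7e-05) in control cells. Ero1l, an oxidase that supports disulphide formation in the endoplasmic reticulum, differed by -0.80 ± 0.10 (adjusted p = 7.9e-05). Lox, the lysyl oxidase that cross-links collagen, was at 677, 663 and 660.2 CPM in control static and 607, 639 and 582.6 CPM in control FFSS libraries, so every FFSS library was lower, but only slightly (-0.13 ± 0.058 (adjusted p = 0.10)). Its paralog Loxl2 was at 0.603 to 3.27 CPM over all 12 libraries and differed by 0.15 ± 0.26 (adjusted p = 0.69) in control and 0.71 ± 0.30 (adjusted p = 0.32) in DKO cells.

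Neither of the 2 carbonic anhydrases, enzymes that hydrate carbon dioxide at the cell surface and so regulate pH, was called under FFSS. Car9 (ENSMUSG00000028463, chromosome 4, 43519838 to 43526601) was at 119, 128 and 139.8 CPM in control static and 109.9, 42.02 and 53.6 CPM in control FFSS libraries. Replicate 1 was just below the static range and replicates 2 and 3 far below it, and the difference was -0.91 ± 0.32 (adjusted p = 0.052). Without that replicate Car9 was called, at -1.43 (adjusted p = 3e-06), as it was with the replicate block, at -1.01 (adjusted p = 0.028). Car12 (ENSMUSG00000032373, chromosome 9, 66561493 to 66614652) was at 2.48, 2.81 and 2.26 CPM in control static and 2.003, 3.32 and 2.13 CPM in control FFSS libraries, which overlapped (-0.02 ± 0.23 (adjusted p = 0.96)).

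**Figure D2:**
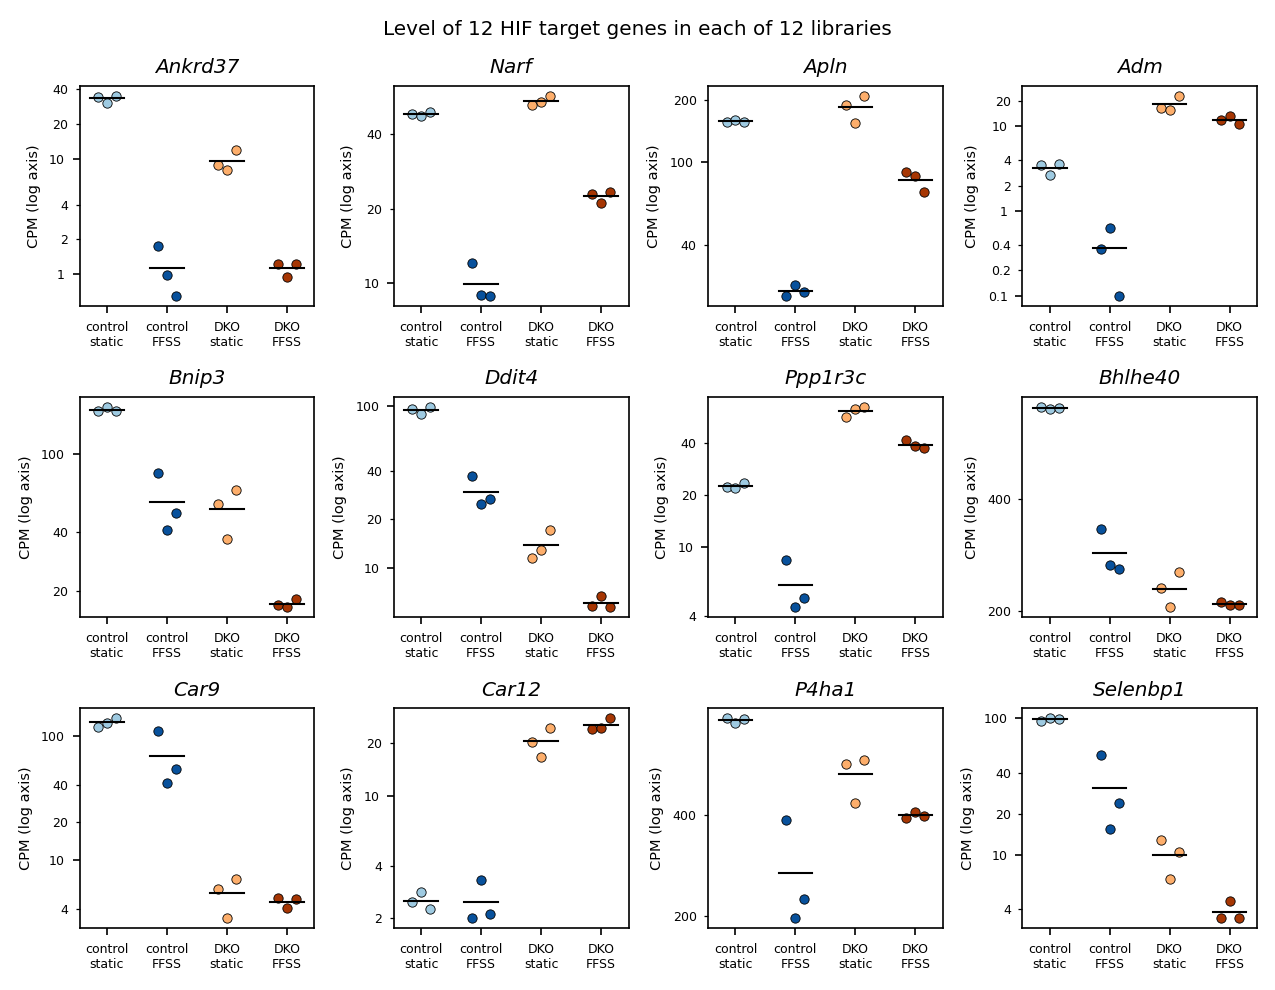
Level of 12 of the genes in each library in CPM on a log axis; each point is 1 of the 3 libraries of a group and each bar the group mean. Apln, Narf and Ankrd37 drop with FFSS in both genotypes, Bhlhe40 drops in control cells toward the level that DKO cells hold in both conditions, and Car9 and Car12 are separated by genotype in opposite directions.

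All 4 demethylases and JmjC proteins were lower in control FFSS cells at an adjusted p under 0.05, and 2 fell. These enzymes need oxygen and iron, and the KDM members remove methyl groups from histone H3. Kdm3a (ENSMUSG00000053470, chromosome 6, 71538968 to 71582899) was at 209.9, 215 and 196 CPM in control static and 99.8, 96.1 and 101 CPM in control FFSS libraries. Levels in DKO cells were 103, 106 and 102 CPM static and 86.5, 80.4 and 83.04 CPM under FFSS. Replicates lay close together in all 4 groups and no 2 groups overlapped. Kdm3a fell by 1.07 ± 0.053 on the log2 scale (adjusted p = 2.8e-08) in control cells, while the DKO difference was -0.32 ± 0.053 (adjusted p = 0.015). The interaction was 0.75 ± 0.075 (adjusted p = 0.00021), under 2-fold.

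Kdm4b (ENSMUSG00000024201, chromosome 17, 56465485 to 56542293) was at 119, 123 and 113 CPM in control static and 65.2, 49.05 and 59.5 CPM in control FFSS libraries. For the DKO libraries, values were 77.01, 74.9 and 87.7 CPM static and 65.1, 58.4 and 58.4 CPM under FFSS. FFSS libraries were below static libraries in both genotypes. Kdm4b fell by 1.03 ± 0.095 on the log2 scale (adjusted p = 8e-06) in control cells and was at -0.40 ± 0.095 (adjusted p = 0.067) in DKO cells. The DKO difference passed, under 2-fold, without control FFSS replicate 1 (-0.40, adjusted p = 0.0005). It also passed in the 6 DKO libraries fitted alone (-0.39, adjusted p = 9.8e-05). Without control FFSS replicate 2 the control value was -0.93 and under 2-fold, as were those of Kdm3a (-0.94) and Kdm4b (-0.91) when library totals alone were used for scaling. Kdm4c differed by -0.46 ± 0.076 (adjusted p = 0.00071) and Jmjd6, a JmjC protein that acts in RNA processing, by -0.71 ± 0.058 (adjusted p = 3.4e-06) in control cells. Jmjd6 also differed in DKO cells, by -0.30 ± 0.058 (adjusted p = 0.03).

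Of the 7 genes of transcriptional feedback and repression, 3 fell in control cells and 0 in DKO cells. Bhlhe40 (ENSMUSG00000030103, chromosome 6, 108610623 to 108616919), also known as DEC1, encodes a repressor that binds E-boxes and acts in the circadian clock. It was at 709, 700.4 and 706 CPM in control static and 333, 266 and 259.5 CPM in control FFSS libraries. In DKO cells it was at 230.0, 205 and 254 CPM static and 211, 207 and 207 CPM under FFSS. Static control cells stood far above the other 3 groups, and the DKO conditions overlapped. Bhlhe40 fell by 1.301 ± 0.091 on the log2 scale (adjusted p = 1e-06) in control cells, against -0.14 ± 0.091 (adjusted p = 0.58) in DKO cells. The interaction was called, at 1.16 ± 0.13 (adjusted p = 0.0004).

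Sap30 (ENSMUSG00000031609, chromosome 8, 59961504 to 59966657), a subunit of the Sin3 histone deacetylase complex, was at 66.2, 68.7 and 68.5 CPM in control static and 31.99, 20.4 and 20.98 CPM in control FFSS libraries. DKO cells held 32.98, 33.02 and 34.8 CPM static and 21.1, 22.3 and 23.04 CPM under FFSS. Control FFSS and DKO FFSS ranges overlapped, whereas static ranges did not. Sap30 fell by 1.47 ± 0.13 on the log2 scale (adjusted p = 8.7e-06) in control cells and was at -0.60 ± 0.13 (adjusted p = 0.057) in DKO cells. The DKO difference passed, under 2-fold, without control FFSS replicate 1 (-0.60, adjusted p = 4.9e-07). It also passed in the 6 DKO libraries fitted alone (-0.60, adjusted p = 1e-06).

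Mxi1 (ENSMUSG00000025025, chromosome 19, 53384996 to 53450300), an antagonist of MYC, was at 96.6, 89.9 and 93.7 CPM in control static and 56.2, 31.4 and 36.6 CPM in control FFSS libraries. Levels in DKO cells were 71.3, 64.9 and 76.5 CPM static and 40.3, 43.9 and 39.6 CPM under FFSS. In both genotypes FFSS libraries lay below static libraries. Mxi1 fell by 1.17 ± 0.17 on the log2 scale (adjusted p = 0.00049) in control cells, and the DKO difference of -0.78 ± 0.17 (adjusted p = 0.059) missed the threshold. The DKO difference passed, under 2-fold, without control FFSS replicate 1 (-0.78, adjusted p = 5.1e-09). It also passed in the 6 DKO libraries fitted alone (-0.77, adjusted p = 2.1e-09).

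The remaining feedback genes were not called under FFSS. Rora, a nuclear receptor of the clock, differed by -0.82 ± 0.094 (adjusted p = 4.5e-05) in control cells, and the zinc finger gene Zfp292 by -0.35 ± 0.10 (adjusted p = 0.016). Bhlhe41, the paralog of Bhlhe40, differed by -0.14 ± 0.068 (adjusted p = 0.13). Cited2, which competes with HIF for the coactivators p300 and CBP, was at 109.8, 116 and 120.3 CPM in control static and 78.8, 143 and 139.5 CPM in control FFSS libraries, where replicate 1 was below and replicates 2 and 3 were above the static range (0.06 ± 0.18 (adjusted p = 0.80)).

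All 3 glycogen genes were lower in control FFSS cells at an adjusted p under 0.05, and 1 fell. Ppp1r3c (ENSMUSG00000067279, chromosome 19, 36806227 to 36811143) encodes a subunit that brings protein phosphatase 1 to glycogen and promotes its synthesis. It was at 22.3, 21.97 and 23.5 CPM in control static and 8.47, 4.49 and 5.10 CPM in control FFSS libraries. For the DKO libraries, values were 56.4, 62.9 and 64.4 CPM static and 41.5, 38.3 and 37.3 CPM under FFSS. All 4 groups were separate, and the DKO FFSS libraries remained above the control static libraries. Ppp1r3c fell by 1.91 ± 0.17 on the log2 scale (adjusted p = 9.8e-06) in control cells and was at -0.65 ± 0.14 (adjusted p = 0.052) in DKO cells. The DKO difference passed, under 2-fold, without control FFSS replicate 1 (-0.65, adjusted p = 9.9e-08). It also passed in the 6 DKO libraries fitted alone (-0.64, adjusted p = 5.8e-08). The interaction was 1.26 ± 0.22 (adjusted p = 0.0094).

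Gys1, glycogen synthase, was at 142, 153 and 137 CPM in control static and 66.1, 73.8 and 78.3 CPM in control FFSS libraries, and the difference of -0.99 ± 0.094 (adjusted p = 1.1e-05) was just under 2-fold. In DKO cells it was at 57.1, 43.1 and 55.6 CPM static and 31.3, 32.2 and 30.7 CPM under FFSS, again without overlap (-0.73 ± 0.10 (adjusted p = 0.0054)). Without control static replicate 3 or control FFSS replicate 3, Gys1 was called in control cells, at -1.02 and -1.04. Gbe1, the glycogen branching enzyme, differed by -0.72 ± 0.16 (adjusted p = 0.0067) in control cells. Gys1 shares 310 exon bases with Ruvbl2 on the opposite strand, and reads in that stretch cannot be assigned without strand.

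Of the 3 genes of growth, stress and ubiquitin, 2 fell in control cells and 1 of them in DKO cells. Ddit4 (ENSMUSG00000020108, chromosome 10, 59412423 to 59414518), also known as REDD1, encodes an inhibitor of mTORC1. It was at 95.4, 88.9 and 98.4 CPM in control static and 36.9, 24.8 and 26.9 CPM in control FFSS libraries. DKO cells held 11.7, 12.9 and 17.3 CPM static and 5.86, 6.72 and 5.76 CPM under FFSS. The 4 groups were separate, with DKO libraries below control libraries in each condition. Ddit4 fell by 1.67 ± 0.15 on the log2 scale (adjusted p = 1.2e-05) in control cells. It fell by 1.19 ± 0.18 on the log2 scale (adjusted p = 0.012) in DKO cells, and the interaction was 0.48 ± 0.23 (adjusted p = 0.23). The DKO call was lost when any 1 DKO FFSS library was left out, at adjusted p between 0.06 and 0.08.

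Ndrg1 (ENSMUSG00000005125, chromosome 15, 66760883 to 66801202), a stress-responsive gene linked to growth arrest, was at 728, 708 and 682 CPM in control static and 294, 211 and 246 CPM in control FFSS libraries. Levels in DKO cells were 204, 157 and 225 CPM static and 141, 132 and 125 CPM under FFSS. Within each genotype the conditions did not overlap. Ndrg1 fell by 1.496 ± 0.13 on the log2 scale (adjusted p = 1.7e-05) in control cells, against -0.56 ± 0.13 (adjusted p = 0.077) in DKO cells, and the interaction was 0.94 ± 0.19 (adjusted p = 0.02), under 2-fold. The interaction was called without control FFSS replicate 1 (1.07) or without DKO static replicate 3 (1.05). The DKO difference of Ndrg1 passed, under 2-fold, without control FFSS replicate 1 (-0.56, adjusted p = 0.025). It did not pass in the 6 DKO libraries fitted alone (-0.55, adjusted p = 0.11). Wsb1, a substrate receptor of a ubiquitin ligase, was at 162, 159 and 151 CPM in control static and 142, 245 and 271 CPM in control FFSS libraries, with replicate 1 below and replicates 2 and 3 above the static range (0.48 ± 0.18 (adjusted p = 0.062)).

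Of the other 4 genes, 3 fell in control cells and 2 in DKO cells. Ankrd37 (ENSMUSG00000050914, chromosome 8, 47082256 to 47085221) encodes a small ankyrin-repeat protein. It was at 34.7, 30.4 and 35.04 CPM in control static and 1.75, 0.976 and 0.643 CPM in control FFSS libraries. For the DKO libraries, values were 8.80, 8.06 and 11.9 CPM static and 1.22, 0.951 and 1.23 CPM under FFSS. The static levels were separate, and under FFSS both genotypes were near 1 CPM and overlapped. Ankrd37 fell by 4.89 ± 0.23 on the log2 scale (adjusted p = 2.8e-08) in control cells. It fell by 3.07 ± 0.25 on the log2 scale (adjusted p = 4.2e-05) in DKO cells. The interaction of 1.82 ± 0.39 (adjusted p = 0.022) was called, but was lost without control static replicate 1 or 3, DKO static replicate 1 or 2, control FFSS replicate 2 or any 1 DKO FFSS replicate, at values of 1.71 to 1.93 and adjusted p between 0.052 and 0.083. Ankrd37 shares 406 exon bases with Ufsp2 and Lrp2bp on the opposite strand, whose summed counts were 471% of its own.

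Narf (ENSMUSG00000000056, chromosome 11, 121098567 to 121117170) encodes a nuclear protein that binds prelamin A. It was at 48.4, 47.6 and 49.4 CPM in control static and 12.02, 8.88 and 8.81 CPM in control FFSS libraries. In DKO cells it was at 52.7, 53.9 and 57.2 CPM static and 22.99, 21.1 and 23.4 CPM under FFSS. Replicates lay close together except for control FFSS replicate 1, and the 4 groups were separate. Narf fell by 2.29 ± 0.10 on the log2 scale (adjusted p = 1.5e-08) in control cells. It fell by 1.28 ± 0.10 on the log2 scale (adjusted p = 1.4e-05) in DKO cells. The interaction of 1.02 ± 0.14 (adjusted p = 0.0018) was barely above 2-fold, and it was under 2-fold, at 0.94 to 0.99, without DKO static replicate 1, control FFSS replicate 2 or 3, or DKO FFSS replicate 3, and with library totals alone (0.91) or edgeR's own filter (0.998). Narf shares 26 exon bases with Foxk2.

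Selenbp1 (ENSMUSG00000068874, chromosome 3, 94736978 to 94748680), a selenium-binding methanethiol oxidase, was at 96.3, 100.4 and 98.02 CPM in control static and 53.5, 15.4 and 23.8 CPM in control FFSS libraries. DKO cells held 12.9, 6.64 and 10.5 CPM static and 3.43, 4.58 and 3.47 CPM under FFSS. All FFSS libraries were below the static libraries of their genotype, and control FFSS replicates differed widely. Selenbp1 fell by 1.67 ± 0.39 on the log2 scale (adjusted p = 0.011) in control cells, and the DKO difference was -1.39 ± 0.53 (adjusted p = 0.30). The DKO difference was called without control FFSS replicate 1 (-1.40, adjusted p = 0.027), by DESeq2 (-1.39, adjusted p = 0.047) and in the 6 DKO libraries fitted alone (-1.39, adjusted p = 0.011). In the 6 control libraries fitted alone, the control call was lost (adjusted p = 0.061), and without control FFSS replicate 1 the control value was -2.33. Mif, a cytokine gene with near-identical pseudogene copies that can take its reads, differed by -0.69 ± 0.22 (adjusted p = 0.033) in control cells.

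The responses of the 2 genotypes were compared by the interaction. Of the 38 genes, 6 were called with a higher value in DKO cells, that is a less negative log2 difference, and 0 with a lower value, 15.8% against a background of 0.376% of all tested genes called higher and 0.275% called lower. They were Adm, Ankrd37, Apln, Ppp1r3c, Bhlhe40 and Narf. A further 6 had an adjusted p under 0.05 at less than 2-fold, namely Ndrg1 (0.94 ± 0.19 (adjusted p = 0.02)), Sap30 (0.87 ± 0.19 (adjusted p = 0.023)), Kdm3a (0.75 ± 0.075 (adjusted p = 0.00021)), Kdm4b (0.64 ± 0.13 (adjusted p = 0.021)), Plod2 (0.48 ± 0.12 (adjusted p = 0.042)) and Jmjd6 (0.41 ± 0.081 (adjusted p = 0.015)). At that threshold 12 genes (31.6%) were thus higher and 0 lower, against a background of 2.28% and 1.68%. Without control FFSS replicate 1, more genes were higher at that threshold, and Stc2, Wsb1 and Cited2 were lower, each by less than 2-fold. The median interaction of the set was 0.48, against -0.02 over all tested genes. For Bnip3 (-0.05 ± 0.36), Zfp292 (0.09 ± 0.14) and Bhlhe41 (0.20 ± 0.10) the interaction did not pass, which does not show that the genotypes respond alike.

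**Figure D3:**
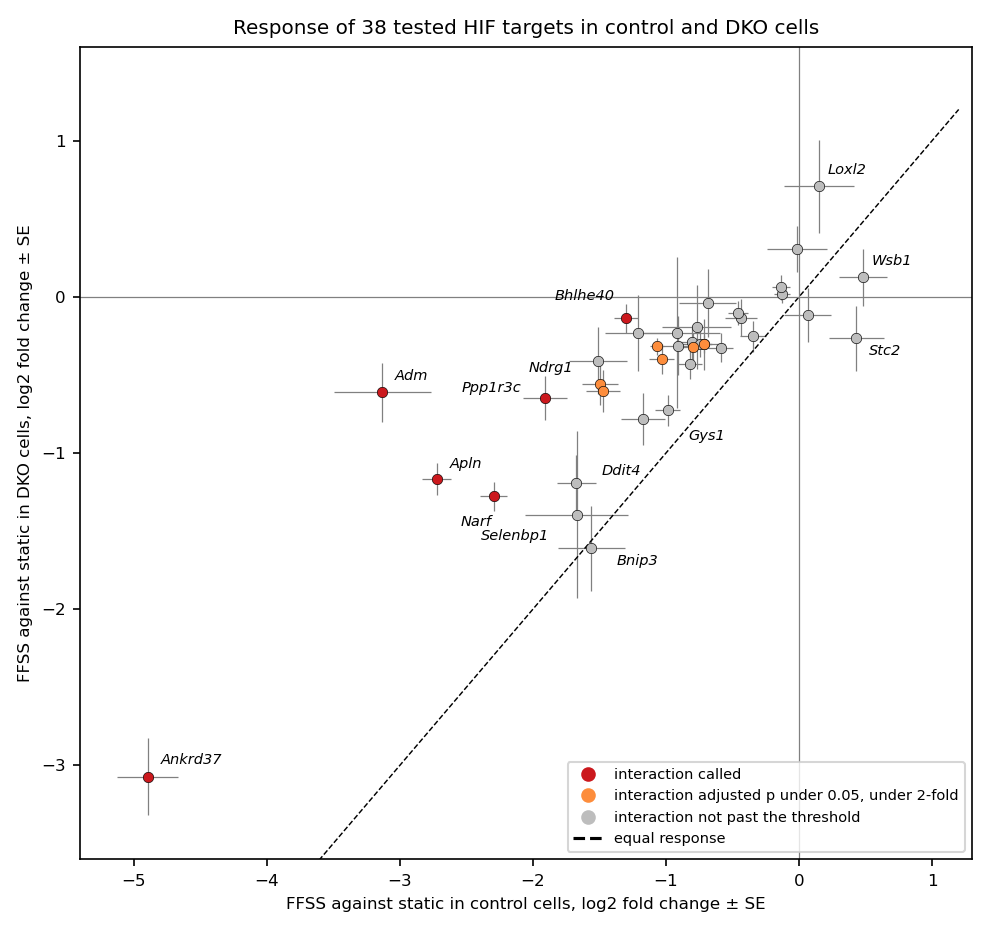
FFSS against static as log2 fold change in control cells (horizontal) and DKO cells (vertical) for the 38 tested genes; points are fitted values, bars are standard errors (3 libraries per group), the dashed line is an equal response and red marks the 6 called interactions. Points lie above the line for most genes, whereas Bnip3 lies on it.

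FFSS replicates of control cells differed among themselves. Control FFSS replicate 1 stood apart from replicates 2 and 3 over all genes, with a chi-square per degree of freedom of 63.8 and 58.0 against 6.45 between replicates 2 and 3, and 2.02 to 5.66 within the other 3 groups. In the gene set, the median log2 difference from the static mean was -0.66 in replicate 1, -1.11 in replicate 2 and -0.94 in replicate 3, and 12, 22 and 18 genes lay below -1, where 1.33%, 5.11% and 4.33% of all tested genes did. All 38 genes lay below 0 in replicate 1, against 33 and 34 in the others, and 49.6% to 49.99% of all tested genes. For 24 of the 38 genes (63.2%) replicate 1 was above both other replicates, as it was for 42.5% of all tested genes. The genes differed in this respect. Apln, Kdm3a, Vegfa, Gys1 and Jmjd6 were as low in replicate 1 as in the others, or lower, while Selenbp1, Car9, P4ha1, P4ha2 and Bnip3 were less reduced there. In DKO cells the medians were -0.27, -0.34 and -0.33, with 6 genes below -1 in each replicate, as were 0.939% to 1.201% of all tested genes. Without control FFSS replicate 1, 19 genes fell in control cells, with Car9, Fam162a and Higd1a in addition, and 11 interactions were called, with Car9, Ndrg1, P4ha1, P4ha2 and Sap30 in addition. The background in that fit was also higher, with 4.46% of all tested genes called lower and 6.86% higher under FFSS in control cells and, for the interaction, 3.43% called higher and 4.17% lower.

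**Figure D4:**
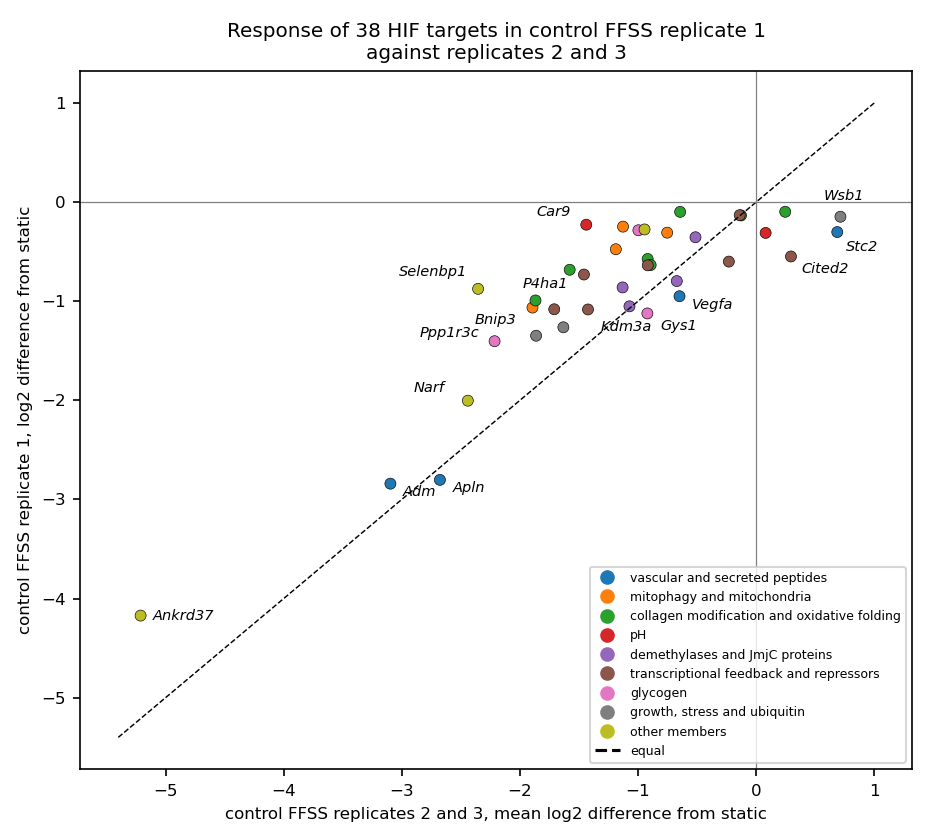
Log2 difference from the control static mean in control FFSS replicate 1 (vertical) against the mean of replicates 2 and 3 (horizontal) for the 38 tested genes, coloured by function; each point is 1 gene and the dashed line marks equal values. Selenbp1, Car9, P4ha1 and Bnip3 lie above the line, Apln, Kdm3a and Vegfa lie near or below it, and Stc2, Wsb1 and Cited2 have opposite signs.

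The share of reads that fell outside annotated genes moved with the same comparison. It was 5.10% to 5.21% in control static and 5.87% to 10.04% in control FFSS libraries (exact two-sided permutation p = 0.1, the smallest that 3 against 3 allows), with the lowest FFSS value in replicate 1. In DKO cells it was 7.07% to 7.14% static and 7.93% to 8.55% under FFSS, with the same p of 0.1 from the exact test. With this share as a covariate, 12 genes fell in control cells, where 0.839% of all tested genes were called lower and 0.490% higher. Bnip3 (-0.99), Kdm4b (-0.85), Mxi1 (-0.64), P4ha1 (-0.89), P4ha2 (-0.58) and Selenbp1 (-0.70) lost the call, Ankrd37 (-4.03) and Ppp1r3c (-1.29) kept it, and Gys1 (-1.17) and Vegfa (-1.002) gained it. The interaction was then called for Adm, Ankrd37 and Apln, against 0.315% of all tested genes called higher and 0.134% lower, while Narf (0.80), Bhlhe40 (0.98) and Ppp1r3c (0.86) were under 2-fold. The share varied most among control FFSS libraries (SD 2.20, against 0.062 in control static, 0.32 in DKO FFSS and 0.036 in DKO static libraries). The slope for the share thus rests mainly on control FFSS libraries. The part of this share in the responses was not tested further.

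More of the set was lower in DKO than in control cells without FFSS than among all tested genes, while the share higher was near or below that of all genes. In static culture 4 genes were higher and 15 lower, 10.5% and 39.5% against backgrounds of 7.98% called higher and 7.30% called lower. Under FFSS 6 were higher and 9 lower, 15.8% and 23.7% against 8.25% and 8.96%. The median log2 difference was -0.72 in static and -0.19 in FFSS libraries, against 0.01 and -0.05 over all tested genes. Irrespective of fold, 23 were lower and 7 higher in static culture at an adjusted p under 0.05 (60.5% and 18.4%, background 27.2% and 27.0%), and 15 lower and 10 higher under FFSS (39.5% and 26.3%, background 29.6% and 27.0%). In static culture 27 genes had every DKO library below every control library and 9 the reverse, against 34.1% and 34.9% of all tested genes, and under FFSS these were 16 and 10, against 30.0% and 28.4%. These comparisons share the control static or control FFSS libraries with those above. With library totals alone for scaling, 4 were higher and 10 lower under FFSS, where the median of all genes shifted to -0.25. In DKO cells the summed levels of osteocyte and chondrocyte markers were also higher, the latter at 3372 to 4148 CPM against 537 to 701 CPM in static control libraries and at 3057 to 3536 CPM against 145 to 566 CPM under FFSS. Of 9 tested osteocyte and osteoblast markers, 6 were called higher and 1 (Pdpn) lower in static culture, and 7 and 1 (Pdpn) under FFSS. Of 10 chondrocyte markers, 5 were called higher and 1 (Hapln1) lower in static culture, and 7 and 0 under FFSS. The part of such differences in cell state in the values of the set was not tested.

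In static culture Car12, Adm, Ppp1r3c and Cited2 were called higher in DKO cells. Car12 was at 20.3, 16.5 and 24.4 CPM in DKO static and 23.9, 24.1 and 27.7 CPM in DKO FFSS libraries, against at most 3.32 CPM in control cells. The difference was 3.01 ± 0.18 (adjusted p = 1.1e-08) static and 3.34 ± 0.18 (adjusted p = 3.7e-09) under FFSS. Adm, with the levels given above, was higher by 2.48 ± 0.22 (adjusted p = 4.6e-07) static and 5.01 ± 0.31 (adjusted p = 1.9e-08) under FFSS (5.68 without control FFSS replicate 2 and 4.56 without replicate 3). Ppp1r3c was higher by 1.44 ± 0.14 (adjusted p = 2.6e-06) and 2.701 ± 0.16 (adjusted p = 2.8e-08). Cited2 (ENSMUSG00000039910, chromosome 10, 17443034 to 17445479) was at 259, 271 and 258 CPM in DKO static and 247, 245 and 233 CPM in DKO FFSS libraries, against 78.8 to 143 CPM in control cells. It was higher by 1.19 ± 0.18 (adjusted p = 0.0002) static and 1.003 ± 0.18 (adjusted p = 0.00061) under FFSS. The static value was under 2-fold, at 0.78, with the share of reads outside genes as a covariate. That fit cannot tell the share from genotype in static culture. The FFSS value was barely above 2-fold, and was under it without control static replicate 1, control FFSS replicate 1 (0.77) or DKO FFSS replicate 1 or 2, with library totals alone (0.79) and with edgeR's own filter (0.99). Under FFSS only, Apln (1.78 ± 0.11 (adjusted p = 1.4e-08)) and Narf (1.19 ± 0.10 (adjusted p = 3.6e-07)) were called higher as well, where Narf was at 0.995 with library totals alone, whereas static values were 0.22 ± 0.10 (adjusted p = 0.072) and 0.17 ± 0.091 (adjusted p = 0.13). For both genes the interaction given above tests that difference. Vegfa and Lox were higher by less than 2-fold, at 0.44 ± 0.084 (adjusted p = 0.0005) and 0.50 ± 0.058 (adjusted p = 5.4e-06) static and 0.88 ± 0.084 (adjusted p = 8.6e-07) and 0.65 ± 0.058 (adjusted p = 4.3e-07) under FFSS.

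Car9 had the lowest fold change of the 38 genes in DKO against control cells. It was at 5.77, 3.35 and 6.996 CPM in DKO static and 4.92, 4.04 and 4.75 CPM in DKO FFSS libraries, far below every control library. The difference was -4.59 ± 0.40 (adjusted p = 9e-06) static and -3.900 ± 0.41 (adjusted p = 3e-05) under FFSS, so that the 2 carbonic anhydrases were separated by genotype in opposite directions. Selenbp1 differed by -3.29 ± 0.43 (adjusted p = 0.00016) static and -3.01 ± 0.49 (adjusted p = 0.00063) under FFSS, and by -2.36 under FFSS without control FFSS replicate 1. Ddit4 differed by -2.76 ± 0.16 (adjusted p = 2e-08) and -2.27 ± 0.17 (adjusted p = 2.8e-07). Bnip3 differed by -1.68 ± 0.25 (adjusted p = 0.00029) and -1.73 ± 0.27 (adjusted p = 0.00036), so that DKO static libraries lay near control FFSS libraries. Bhlhe41 (ENSMUSG00000030256, chromosome 6, 145806763 to 145814078), at 49.6, 45.8 and 47.5 CPM in control static and 13.2, 12.1 and 13.8 CPM in DKO static libraries, differed by -1.87 ± 0.074 (adjusted p = 2e-10). Under FFSS it was at 43.4, 42.8 and 43.7 CPM in control and 14.4, 12.7 and 13.6 CPM in DKO libraries, a difference of -1.67 ± 0.074 (adjusted p = 5.2e-10). Its FFSS differences, -0.14 ± 0.068 in control and 0.06 ± 0.078 in DKO cells, did not pass the test.

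A further 10 genes were called lower in static DKO cells. Gys1 (-1.47 static, -1.21 under FFSS) and Ero1l (-1.59, -1.08) were called in both conditions, and Fam162a (-1.64, -1.07) likewise. Without control FFSS replicate 1 the FFSS calls of Ero1l (-0.99) and Fam162a (-0.72) were lost. Ndrg1 (-1.86, -0.92), Ankrd37 (-1.797, 0.03), Bhlhe40 (-1.62, -0.46), Higd1a (-1.11, -0.51), Mif (-1.02, -0.37), Sap30 (-1.01, -0.14) and Rora (-1.01, -0.62) were called in static cells and not under FFSS, and for these the interaction was called only for Ankrd37 and Bhlhe40 (Ndrg1 and Sap30 had an adjusted p under 0.05). Static calls near 2-fold depended on 1 library or on the fit. Higd1a was lost without DKO static replicate 2 (-0.97), Mif without that replicate (-0.82) or without control static replicate 3 (-0.96), Rora without control static replicate 1 (-0.94) and Sap30 without DKO static replicate 1 or 2, for Sap30 barely under 2-fold. With the share of reads outside genes as a covariate, which was 7.07% to 7.14% in DKO and 5.10% to 5.21% in control static libraries, 3 genes were higher and 13 lower in static DKO cells, against 8.29% and 8.53% of all tested genes. Cited2 (0.78), Higd1a (-0.75), Mif (-0.70), Rora (-0.89) and Sap30 (-0.71) then lost the static call, Loxl2 (-1.097) and Wsb1 (-1.099) gained it, and Wsb1 (-0.92) lost the FFSS call. Ankrd37 (-1.21) and Selenbp1 (-2.60) kept the static call at smaller values. Within each static group the share hardly varied (SD 0.036 in DKO and 0.062 in control libraries). The slope for the share in this fit thus came mainly from control FFSS libraries. The fit cannot tell the share from genotype in static culture. Kdm3a, at -0.998 ± 0.053 (adjusted p = 2.8e-09), was just under 2-fold and was called without control static replicate 3 (-1.04) or DKO static replicate 2 (-1.01) and with library totals alone (-1.08). Loxl2 (-0.89) was called without DKO static replicate 3 (-1.28), and did not pass without DKO static replicate 2 (-0.53, adjusted p = 0.065). Wsb1 was called under FFSS at -1.01 ± 0.18 (adjusted p = 0.00082) and lost the call without control FFSS replicate 2 (-0.92) or 3 (-0.83), or DKO FFSS replicate 1 (-0.997). It was also just under 2-fold, at -0.996 to -0.989, with RLE factors, with no filter, by DESeq2, with the replicate block and in the 6 FFSS libraries fitted alone. Ndrg1 was called under FFSS without control FFSS replicate 2 (-1.03) and with library totals alone (-1.11). DKO static replicate 2 was the lowest of its group for 27 of the 38 genes (71.1%), against 39.9% of all tested genes.

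**Figure D5:**
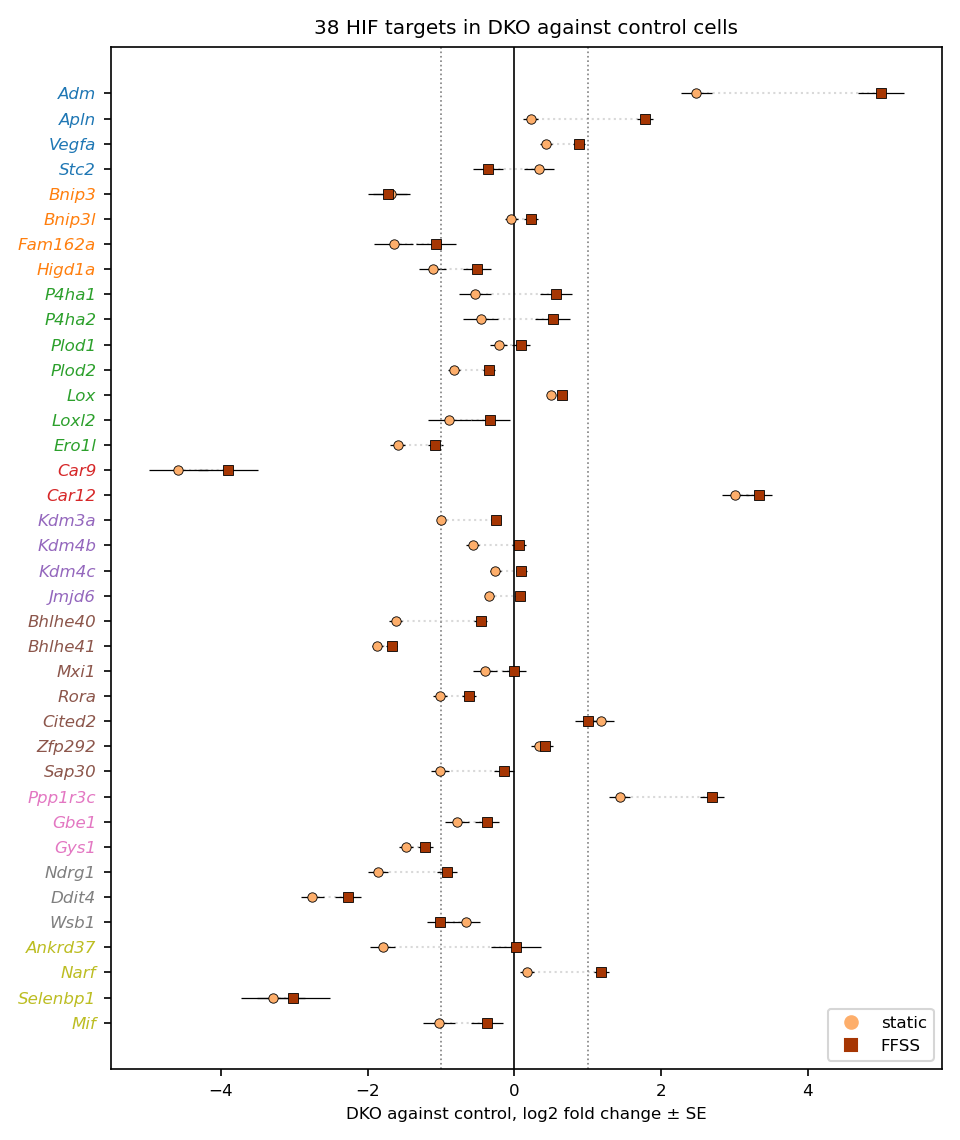
DKO against control as log2 fold change with standard error (3 libraries per group) for the 38 tested genes, in static (circles) and FFSS libraries (squares); dotted lines join the 2 values of a gene and vertical dotted lines mark a 2-fold difference, and gene names are coloured by function. Car12 and Adm lie farthest right and Car9 and Selenbp1 farthest left, and the square of Ankrd37 lies at 0.03 where its circle lies at -1.80.

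Other genes of the pathway were read from lists outside the set. Of 9 tested genes of the HIF machinery, 2 fell and 0 rose under FFSS in control cells, against 1.97% and 3.96% of all tested genes. Both are prolyl hydroxylases that are themselves known HIF targets. Egln3 was at 363 ± 14.7 CPM in control static and 35.8 ± 13.6 CPM in control FFSS cells (SD, n = 3 each) and fell by 3.34 ± 0.24 on the log2 scale (adjusted p = 1.6e-05). It was at 31.8 ± 6.53 CPM in DKO static and 6.39 ± 0.77 CPM in DKO FFSS cells, where it fell by 2.31 ± 0.28 (adjusted p = 0.0073). Egln1 fell by 1.14 ± 0.17 in control cells (adjusted p = 0.00096). In DKO cells 1 of the 9 fell and 0 rose, against 0.0738% and 0.0134% of all tested genes. The transcript of Hif1a, the oxygen-regulated subunit, was at 266 ± 8.68 CPM in control static and 225 ± 12.3 CPM in control FFSS cells, and at 397 ± 8.05 CPM in DKO static cells. In static DKO against control cells, 3 of the 9 were called lower and 1 higher (background 7.30% and 7.98%), with a median log2 fold change of -0.39. Under FFSS 2 were lower (Egln1 and Egln3) and 2 higher (background 8.96% and 8.25%), with a median of -0.064. Those lower in static culture were Egln3 (-3.51), Egln1 (-1.898) and Arnt (-1.002 ± 0.054, adjusted p = 3e-09), the partner of the alpha subunit, and Arnt2, a homologue of Arnt, was higher (4.55). Under FFSS Arnt2 (3.52) and Epas1, the gene of HIF2α (1.66 ± 0.41, adjusted p = 0.0076), were higher, where Epas1 was at 58.3 ± 43.5 CPM (SD, n = 3) in control FFSS libraries. The static difference of Hif1a between DKO and control cells was 0.58 ± 0.055 (adjusted p = 7.6e-07), under 2-fold. Transcript levels of Hif1a do not measure the protein, whose stability is regulated.

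Among 23 glycolytic HIF targets, which are not part of the set, 4 fell and 0 rose under FFSS in control cells (Slc2a1, Pdk1, Pfkl and Slc16a3). In DKO cells 2 fell (Slc2a1 and Pfkl). Of all tested genes, 1.97% were called lower and 3.96% higher in control cells, and 0.0738% lower in DKO cells. At an adjusted p under 0.05 alone, 18 glycolytic targets were lower and 1 higher in control cells (background 18.1% and 17.7%). In DKO cells 4 were lower and 0 higher (background 0.497% and 0.376%). The median of the glycolytic targets was -0.82 in control and -0.24 in DKO cells, near the values of -0.87 and -0.31 of the 38 genes. In static DKO cells 15 of the 23 were lower and 0 higher than in control cells (7.30% and 7.98% of all tested genes). Under FFSS 8 were lower and 0 higher (8.96% and 8.25% of all tested genes). The 38 genes had members in both directions in each condition. No test of the difference between the lists was made.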

How the data were processed

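RNA-seq libraries of total RNA were analysed from 12 samples, 3 in each of 4 groups defined by their titles and characteristics. Per the labels and the study's methods, the authors aligned reads to mm9 with STAR and counted them per Ensembl gene with HTSeq, without strand, and the counts were deposited as raw whole numbers, 1 table per library, neither normalised nor filtered. Reads shared by overlapping genes or aligned to several places are left out by such counting, which can lower Ankrd37, Narf, Gys1 and Mif. Coordinates are mm9, from GENCODE gene models of that build, 1-based.

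Genes with 0 counts in 2 or more libraries were removed, as in the study's methods, leaving 14904 genes. Counts were fitted with edgeR 4.0.16 in R 4.3.3 (robust quasi-likelihood, TMM) over all 12 libraries as 4 groups, without a replicate block, with 8 residual degrees of freedom. P-values were Benjamini-Hochberg adjusted over all genes, and a gene was called at an adjusted p under 0.05 with more than 2-fold change. Standard errors were taken from the fold change and its F statistic. CPM used TMM-scaled totals, and log2 CPM a prior count of 2. The floor of 3 counts, and all limits from it, cover counting error only. The procedure was tested on simulated data with the same spread in every library. That simulation held no library that stood apart as control FFSS replicate 1 did, so it does not cover that case.

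The 39 genes, their functional groups and all lists were chosen with earlier results of these data known. Every member is named. Full values are given for members called under FFSS or in the interaction and for the 4 highest and 4 lowest called members of each genotype comparison. DESeq2 1.42.0, other scalings, filters and fits, and the omission of each library were tried as alternatives. The HTSeq lines that name no gene were left out of library totals and tests, and the share of reads outside genes, 5.10% to 10.04%, was used as a covariate in 1 alternative. No fold changes made by the authors were used.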

Additional observations from a re-analysis of the deposited data

Results flagged for a closer look

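In the main fit of all 12 libraries, the response to FFSS differed between control and DKO cells for 12 genes by the interaction test of edgeR (adjusted p under 0.05), and in each of them the DKO value was higher. The log2 interactions were 2.52 for Adm, 1.82 for Ankrd37, 1.56 for Apln, 1.26 for Ppp1r3c, 1.16 for Bhlhe40, 1.02 for Narf, 0.94 for Ndrg1, 0.87 for Sap30, 0.75 for Kdm3a, 0.64 for Kdm4b, 0.48 for Plod2 and 0.41 for Jmjd6. Control FFSS libraries were also the group with the widest spread of reads outside genes, and the part of that spread in these values was not tested beyond the covariate fit. When control FFSS replicate 1 was left out, Stc2, Wsb1 and Cited2 also passed, with a lower DKO value.

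A signal also appeared in reads outside annotated genes, which enter the comparisons only as a covariate in 1 alternative. Their mean share was 8.37% in control FFSS libraries, against 5.14% in control static libraries, and 8.19% in DKO FFSS libraries, against 7.11% in DKO static libraries. In both genotypes each FFSS library was above each static library.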

How the results depend on the processing

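The counts of genes called, 16 for FFSS in control cells, 5 in DKO cells, 6 for the interaction, 19 for static and 15 for FFSS libraries of DKO against control, stayed within 1.5 times under RLE factors, library totals, other filters, DESeq2 and fits of 6 libraries, where those were run (the interaction cannot be fitted to 6 libraries). Without the fold limit they were 30, 8, 12, 30 and 25 in the main fit of all 12 libraries. Of these, the counts for DKO cells and the interaction were higher without control FFSS replicate 1. With the share of reads outside genes as a covariate the interaction count was 3. Leaving out 1 library gave 15 to 19, 3 to 6, 4 to 11, 17 to 20 and 12 to 15. The 11 came without control FFSS replicate 1 and the 3 without any 1 of the DKO FFSS libraries. With the replicate block the counts were 17, 5, 6, 19 and 14. Same-numbered libraries were not paired, since their deviations from group means correlated at a mean r of 0.0023 (-0.060 to 0.063) across genes.

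Of 854 alternative values of 43 single-gene results, 814 kept their direction and side of the threshold, 40 kept the direction only and 0 reversed. With library totals, the median of all genes moved to 0.13 for FFSS in control cells, -0.25 for DKO against control under FFSS and -0.13 for the interaction. Depth limits Stc1, Adm, Loxl2, Ankrd37 and Car12, which had few reads in at least 1 group.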
